A study of Mus musculus with 12 samples.

Results

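The presynaptic SNARE fusion machinery was followed as 8 genes, Snap25, Vamp1, Vamp2, Stx1a, Nsf, Napb, Cplx1 and Cplx2, of 20504 entries in the table of reads counted on coding sequence (CDS). The genes were chosen by name, with earlier results of these data known. The study itself had picked Snap25 as a highly translated gene from its ribosome profiling data. By qPCR on polysome fractions, the study then found Snap25 in heavier polysomes than the genes it had picked as lowly translated. All 8 were measured in all 12 libraries and passed the minimum mean of 37 counts per library. The libraries came from the brain of 6 Camk2a-RiboTag mice, adults that the study's methods give as 3 months old, in which the Camk2a promoter drives Cre in forebrain excitatory neurons and Cre in turn switches on an HA-tagged ribosomal protein Rpl22. All 6 mice carried both alleles. Mice A and B received the Captisol vehicle by gavage (the labels call them untreated), and mice C and D received 100 mg/kg of AZD-8055, which blocks the kinase mTOR at its ATP site, 1 h before tissue was taken. From each of these 4 animals a library of ribosome-protected fragments (footprints) and an RNA-Seq library of poly(A) RNA were made. For each of the untreated mice E and F, RNA-Seq was done on the homogenate (input) and on the RNA immunoprecipitated with the tagged ribosomes (IP).

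At a synapse, a vesicle fuses when the vesicle protein synaptobrevin zippers with syntaxin and SNAP-25 on the plasma membrane into a bundle of helices. Vamp1 and Vamp2 encode the synaptobrevins, Stx1a encodes syntaxin-1A, and Snap25 encodes the partner that is anchored to the membrane by lipids rather than by a transmembrane segment. Complexins, encoded by Cplx1 and Cplx2, bind the assembled bundle and tune release to calcium. After fusion, the ATPase NSF, held on the bundle by SNAP adaptors such as the product of Napb, pulls the helices apart so that the proteins can be used again. The proteins act in nerve terminals, in excitatory and inhibitory neurons alike.

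The genes lie apart in the genome. On GRCm38, Snap25 spans chr2:136713439-136782428 and Napb chr2:148693985-148732425. Vamp1 lies at chr6:125215581-125222306, Vamp2 at chr11:69088528-69092381 and Nsf at chr11:103821782-103954056. Stx1a lies at chr5:135023482-135051100, Cplx1 at chr5:108518554-108550027 and Cplx2 at chr13:54301964-54383923. The annotation places lncRNAs or pseudogenes within the bounds of Snap25, Nsf, Napb and Cplx2, and none of those carries an entry in the table.

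CDS totals were 9395385 to 10649939 counts in the RNA-Seq libraries of mice A to D, 3503873 to 9259938 in the footprint libraries, and 9309496 to 15585831 in the libraries of mice E and F. The 8 genes together held 0.381% to 0.424% of the CDS counts in the RNA-Seq of mice A to D and 0.789% to 0.876% in the footprints. They held 0.410% and 0.450% in the input and 0.545% and 0.531% in the IP of mice E and F, respectively. The lists of marker genes for neurons, astrocytes, oligodendrocytes and their precursors, microglia and endothelium were detected in every group, with no listed gene of the table at 0 in any group.

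**Figure D1:**
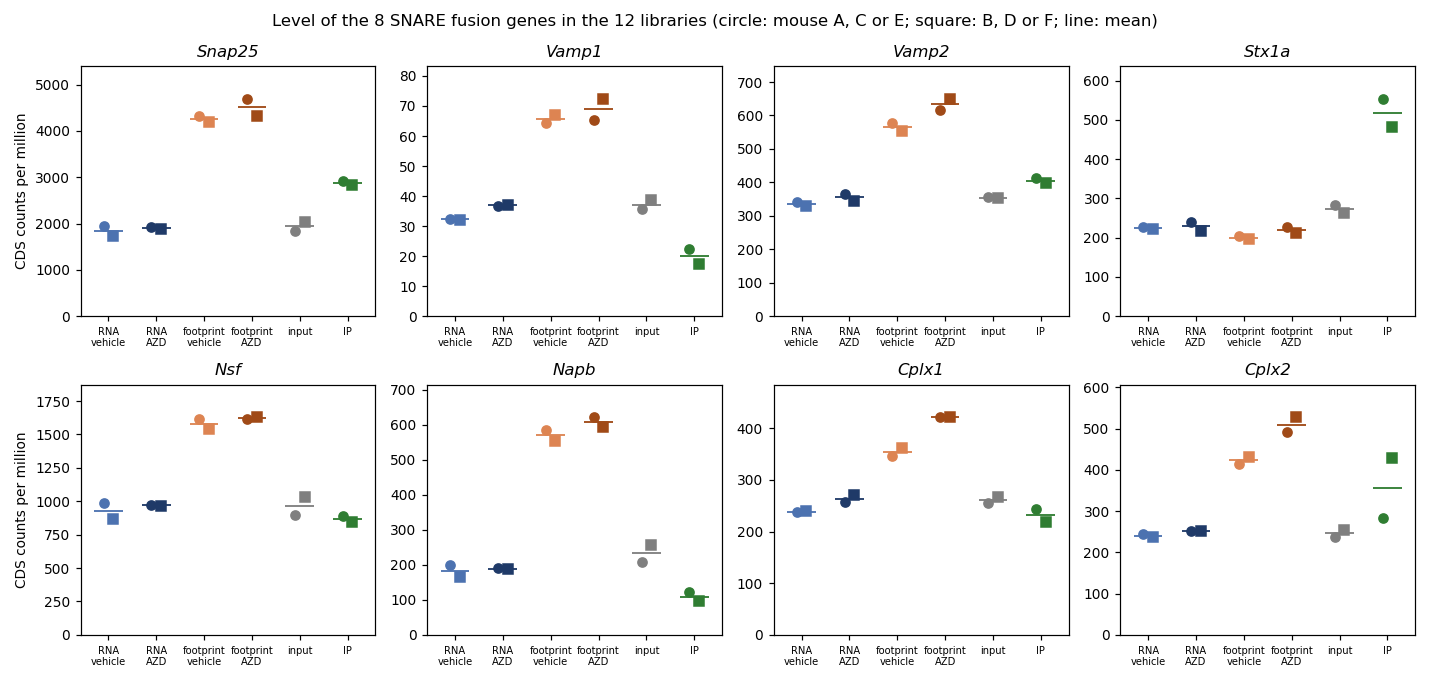
CPM (CDS counts scaled to a common library total) in each library for each of the 8 genes, by group, with the mean as a line; each panel has its own axis that starts at 0. The footprint libraries sit above the RNA-Seq libraries of the same mice for all genes but Stx1a, and the IP libraries sit above their inputs for Snap25, Vamp2, Stx1a and Cplx2.

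In the vehicle-treated mice, 7 of the 8 genes had a translation efficiency (TE) above that of the typical gene, and Stx1a did not. TE is the ratio of footprints to RNA counted on the same CDS, and it is given on the log2 scale with the median gene near 0. Counts were not divided by gene length, and whether the length of the CDS still bears on the ratio was not tested. Napb had the highest TE with a 3.44-fold excess of footprints, followed by Snap25 with 2.55-fold and Vamp1 with 2.25-fold. The median over the 8 genes was 0.93, beside −0.0096 over all 11797 genes tested. By edgeR's quasi-likelihood test at an adjusted p of 0.05, 7 of the 8 genes had more footprints than RNA, where 36.5% of all genes did, and with a fold over 2 as well it was 3 of the 8, where 13.2% of all genes did.

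Among the proteins that form the bundle, Snap25 was measured in the RNA-Seq libraries at 1954 CPM (CDS counts scaled to a common library total) for mouse A and 1721 for mouse B, while the footprint libraries gave 4315 and 4184. Its per-mouse log2 TE was 1.27 and 1.35 (mean 1.31 ± 0.057, SD, n = 2), higher than that of 93.2% of genes. The edgeR estimate was 1.35 with an SE of 0.066 (adjusted p = 4.3e-11), so the excess of footprints was many times the spread between the mice. Vamp1, a synaptobrevin best known from brainstem and spinal cord, had 32.4 and 32.1 CPM of RNA and 64.5 and 67.0 CPM of footprints in mice A and B. Its log2 TE was 1.12 and 1.13 (edgeR estimate 1.17, SE 0.095, adjusted p = 1.88e-08). Vamp2, the main synaptobrevin of central terminals, had 342.8 and 329.8 CPM of RNA against 578.6 and 552.8 CPM of footprints, a log2 TE of 0.88 and 0.81 (edgeR estimate 0.89, SE 0.069, adjusted p = 1.03e-08). Within each mouse Vamp1 thus had the higher TE of the synaptobrevins, by 0.24 in mouse A and 0.32 in mouse B.

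Stx1a stood at the other end. Its RNA was 228 and 222.6 CPM in mice A and B and its footprints 203.3 and 196.4 CPM, so that both footprint libraries lay under both RNA-Seq libraries on this scale. After normalization its log2 TE was −0.038 and −0.11, higher than that of 49.1% of genes. The edgeR estimate of −0.029 (SE 0.080) gave an adjusted p of 0.755, and its TE could not be told from equal shares of footprints and RNA. The lowest TE of the other 7 genes, 0.66 for Cplx1 in mouse B, lay above both values of Stx1a.

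Of the disassembly genes, Napb had 200.7 and 165 CPM of RNA against 583.8 and 554.8 CPM of footprints, and its log2 TE of 1.67 and 1.82 exceeded that of 96.8% of genes. The edgeR estimate was 1.78 (SE 0.090, adjusted p = 6.51e-11). Nsf had 987.3 and 865.6 CPM of RNA and 1612 and 1540 CPM of footprints, with a log2 TE of 0.83 and 0.90 (edgeR estimate 0.91, SE 0.067, adjusted p = 5.66e-09). Hence the adaptor and the ATPase that work together differed, with the TE of Napb above that of Nsf in both mice.

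The complexins were intermediate. Cplx1, with 237.5 and 240.3 CPM of RNA and 345.6 and 362.3 CPM of footprints, had a log2 TE of 0.67 and 0.66 (edgeR estimate 0.71, SE 0.068, adjusted p = 1.19e-07). Cplx2, with 244.5 and 236.3 CPM of RNA and 415.4 and 430.6 CPM of footprints, had 0.89 and 0.93 (edgeR estimate 0.96, SE 0.068, adjusted p = 4e-09). Cplx2 had the higher TE in both mice, by 0.22 and 0.27. In the order Napb, Snap25, Vamp1, Cplx2, Nsf, Vamp2, Cplx1 and Stx1a, neighbours overlapped between mice for Cplx2 and Nsf and for Nsf and Vamp2, and were separate otherwise. The differences between genes are descriptions and were not tested. With scaling by library totals, which moved the median TE of all genes by −0.14, the same number of the 8 genes, 7, had more footprints than RNA.

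**Figure D2:**
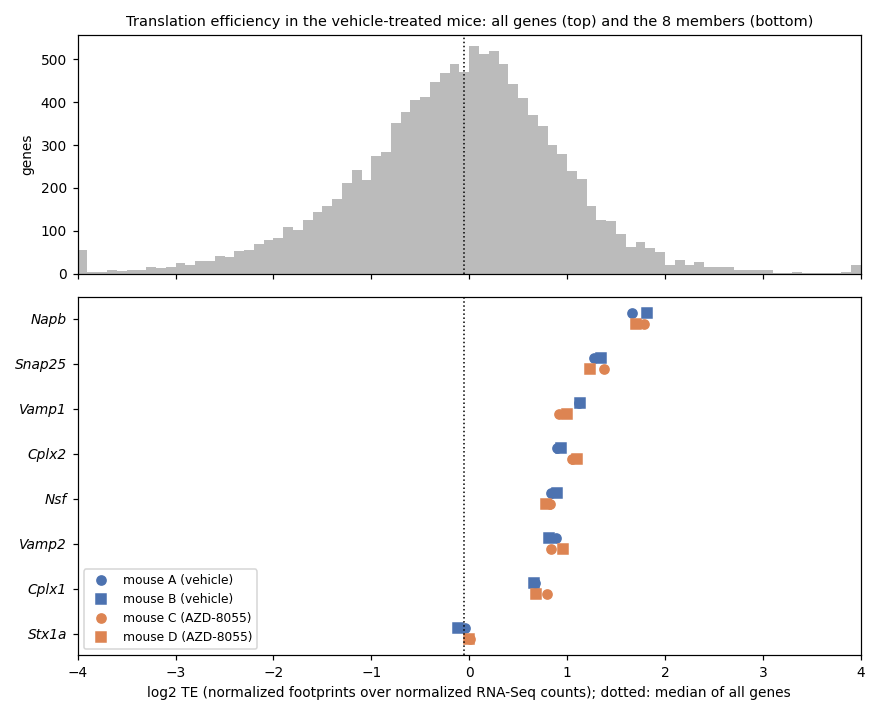
Histogram of the log2 TE of all genes in the vehicle-treated mice (top; values beyond 4 in either direction are drawn in the outer bars), and the TE of each of the 8 genes in each mouse (bottom; blue for vehicle, orange for AZD-8055). Stx1a sits at the median of all genes, the other 7 lie to its right, and the orange points lie close to the blue ones.

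The paralogs of Napb differed among themselves. Napg, which encodes gamma-SNAP, had a log2 TE of 1.91 and 1.81 in mice A and B, close to Napb, while Napa, which encodes the widely expressed alpha-SNAP, had 0.41 and 0.38. Over a list of 33 other SNARE genes, 28 were tested, of which 14 had more footprints than RNA, 8 had fewer and 6 did not pass the test, with a median of 0.33, where 36.5% of all genes had more and 37.3% fewer. The lowest was Stx4a, a plasma membrane syntaxin found in many tissues, at −2.61 (SE 0.13, adjusted p = 3.94e-11). Over a list of 31 regulators of priming and assembly, 29 were tested, of which 14 had more, 8 fewer and 7 did not pass, with a median of 0.15. The extremes were Stxbp5l, which encodes the syntaxin-binding tomosyn-2, at 2.72 (SE 0.11, adjusted p = 5.02e-12) and Unc13c, which encodes the priming factor Munc13-3, at −1.24 (SE 0.12, adjusted p = 2.19e-07).

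Comparison of mice C and D with mice A and B asked whether acute inhibition of mTOR changed these genes. None of the 8 changed in TE, and none changed in footprints or RNA at an adjusted p of 0.05. In TE, 0 of the 8 were called, where 0.865% of all genes were (102 of 11797), and 0 of the 8 had an unadjusted p under 0.05, where 6.75% of all genes did. DESeq2 called 0 of the 8 as well. The median TE change over the 8 genes was 0.029, beside −0.011 over all genes.

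The per-mouse TEs show how close the groups lay. Snap25 had a log2 TE of 1.37 in mouse C and 1.23 in mouse D, on either side of the vehicle-treated mice, and its change was −0.00097 (SE 0.091, adjusted p = 1) with a 95% interval of 0.873- to 1.14-fold. Napb had 1.79 and 1.70, again within the range of mice A and B, and Stx1a had 0.011 and −0.0070, above both. The largest changes were a rise of 0.16 for Cplx2 (0.972- to 1.29-fold, adjusted p = 0.788), whose values of 1.05 and 1.10 in mice C and D were above those of mice A and B, and −0.16 for Vamp1 (0.733- to 1.10-fold, adjusted p = 0.89), whose values of 0.92 and 1.00 were below. Nsf had 0.82 and 0.79, below both vehicle-treated mice, Vamp2 had 0.84 and 0.95, and Cplx1 had 0.79 and 0.68. The widest of the 8 intervals was that of Vamp1, the gene with the fewest counts. Together the 8 intervals ran from 0.733- to 1.29-fold, and changes inside them were not detectable with 2 mice in each group.

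In the footprints, all 8 estimates were above 0, where 50.7% of all genes were. Their median was 0.10 beside 0.0036 over all genes. By edgeR 0 of the 8 were called, where 1.52% of all genes were, and 3 of the 8 (Cplx2, Cplx1 and Vamp2) had an unadjusted p under 0.05, where 14.5% of all genes did. Cplx2 had 491.5 and 527.8 CPM of footprints in mice C and D, both above mice A and B, a change of 0.26 (SE 0.068, adjusted p = 0.0809). DESeq2 called 1 of the 8, where it called 1.48% of all genes. The gene was Cplx2, with a change of 0.27 and an adjusted p of 0.0254 (over the 12 alternatives tried, the adjusted p of Cplx2 ran from 0.0254 to 0.566). Cplx1 had 421.2 and 421.7 CPM in mice C and D, also above both vehicle-treated mice, a change of 0.24 (SE 0.068, adjusted p = 0.103). For Vamp2 the footprints were 617 and 650.7 CPM (change 0.15, SE 0.069, adjusted p = 0.328). The other 5 changed by 0.033 (Nsf) to 0.12 (Stx1a). Since both complexins had RNA and footprint estimates on the same side, their TE estimates were smaller than their footprint estimates.

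In the RNA, all 8 estimates were again above 0, where 54.9% of all genes were. They had a median of 0.093 beside 0.015 over all genes, and ran from 0.047 for Stx1a to 0.22 for Vamp1. By edgeR 0 of the 8 were called, where 0.0932% of all genes were, and 2 of the 8 (Vamp1 and Cplx1) had an unadjusted p under 0.05, where 7.06% of all genes did. DESeq2 called 0 of the 8. Vamp1 RNA was 36.7 and 37.1 CPM in mice C and D, above mice A and B (SE 0.096, adjusted p = 0.662). Cplx1 RNA was 258 and 270 CPM, also above both (change 0.17, SE 0.067, adjusted p = 0.612). The RNA of Snap25, at 1925 and 1883 CPM, lay between mice A and B. The footprint and RNA changes come from separate libraries of the same mice, and the TE change uses both sets, so the changes are not independent of each other. Of the 11 genes called in RNA over the whole table, 18.2% were higher with AZD-8055, and 0% of those called were higher when libraries were scaled by their totals.

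A list of 7 striatal marker genes moved with these groups. Its summed level was 1630 to 1680 CPM of RNA in mice A and B and 1850 to 2020 in mice C and D, and 1620 to 1670 against 1770 to 2070 CPM of footprints, with 0 of the 7 genes at 0 and a median change of 0.28 in RNA and 0.25 in footprints. The summed excitatory markers were 4100 to 4120 CPM of footprints in mice A and B and 4610 to 4720 in mice C and D, and their RNA overlapped, with 4150 to 4200 against 4200 to 4570 CPM. The summed markers of inhibitory neurons were also apart, at 1350 to 1360 against 1400 to 1440 CPM of RNA and 2110 against 2230 to 2290 CPM of footprints. Gene by gene they moved less, with a median change of 0.078 in RNA and 0.023 in footprints. The lowest of them, Calb2, was at −0.50 and −0.38, respectively. The part of these marker lists in the small estimates above 0 was not tested. In bulk tissue, fewer cells of a type and less RNA per cell cannot be told apart. Of the list of 31 regulators, 1 changed in TE, Bsn, which encodes the active zone scaffold Bassoon (0.48, SE 0.099, adjusted p = 0.0279), and 28 of the 29 tested did not pass. The call of Bsn was lost when any of the 4 mice was left out and without a filter on low counts. Of the 28 other SNARE genes, edgeR called 0 in TE, footprints and RNA, with 2, 4 and 1 at an unadjusted p under 0.05, respectively, and DESeq2 called 0.

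**Figure D3:**
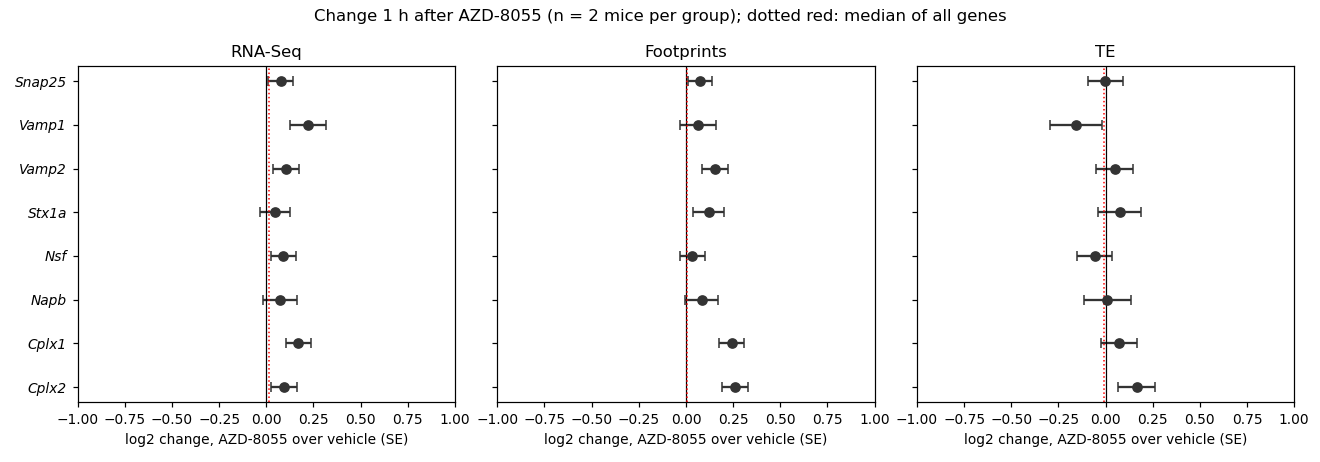
Log2 change with AZD-8055 over vehicle of the 8 genes in RNA-Seq, footprints and TE, as the edgeR estimate with its SE (n = 2 mice per group); the dotted red line is the median of all genes. Estimates lie between −0.16 and 0.26, all above 0 in RNA and footprints and on both sides of 0 in TE.

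Comparison of the IP with the input of mice E and F gives the share of each RNA on tagged ribosomes relative to its share in the homogenate. Counted on CDS, 5 of the 8 genes were enriched, 2 were depleted and Cplx1 did not pass the test, where 36.5% of all 12211 genes were enriched and 39.0% depleted. Stx1a was the most enriched at 2.58-fold, followed by Snap25 at 2.01-fold and Cplx2 at 1.96-fold, and Napb was the most depleted. Only Stx1a and Snap25 also exceeded a fold of 2, where 20.4% of all genes were enriched by as much. The median over the 8 genes was 0.46 on the log2 scale, beside −0.067 over all genes.

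Stx1a went from 282.3 CPM in the input to 554.6 in the IP in mouse E and from 262.7 to 483.1 in mouse F. Its log2 IP over input, after normalization by size factors in each mouse, was 1.53 and 1.46, and the edgeR estimate was 1.36 (SE 0.11, adjusted p = 1.03e-05). Snap25 went from 1835 to 2916 CPM in mouse E and from 2040 to 2826 in mouse F (edgeR estimate 1.00, SE 0.093, adjusted p = 1.7e-05). Both IP libraries lay above both inputs for each of these genes. Vamp2 rose less, from 355.6 to 412.1 and from 352.2 to 397.2 CPM (edgeR estimate 0.63, SE 0.10, adjusted p = 0.000445), a call that was lost when libraries were scaled by their totals.

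Cplx2 was enriched to different degrees in the mice. It went from 237.9 to 283.8 CPM in mouse E and from 254 to 428.3 CPM in mouse F, a log2 IP over input of 0.81 and 1.34 (edgeR estimate 0.97, SE 0.18, adjusted p = 0.00104). Cplx1 showed no such rise in CPM, with 254.6 and 267.5 CPM in the inputs and 244.1 and 218.7 CPM in the IPs. Its edgeR estimate of 0.26 (SE 0.11) had an adjusted p of 0.059. Cplx1 was called enriched in 8 of the 12 alternatives, among them the mouse as a block (0.26, adjusted p = 0.00799). Over the alternatives its adjusted p ran from 0.000756 to 0.795.

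Nsf and Cplx1 were lower in CPM in the IPs and higher after normalization. Scaling by library totals in place of TMM moved the median of all genes by −0.44 on the log2 scale. Nsf had 894 and 1028 CPM in the inputs and 889.7 and 842.8 in the IPs, an edgeR estimate of 0.29 (SE 0.11, adjusted p = 0.0338) that became −0.15 with library totals, as Cplx1 became −0.18. Without mouse E the estimate of Nsf was 0.077, in a fit that also took in the libraries of mice A to D. That fit thus differed from the main one in its libraries and scaling as well as in the mouse left out. Over its alternatives the adjusted p of Nsf ran from 8.92e-05 to 0.629. Of the genes called in this comparison, 48.3% were enriched, and 32.5% were when scaled by library totals.

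Vamp1 and Napb were the genes depleted in the IP on CDS counts after normalization, and Napb had the highest TE of the 8. Vamp1 went from 35.6 to 22.5 CPM in mouse E and from 38.6 to 17.3 in mouse F (edgeR estimate −0.46, SE 0.17, adjusted p = 0.0336). Napb went from 208.2 to 122.3 CPM and from 257.3 to 95.4 CPM (edgeR estimate −0.66, SE 0.16, adjusted p = 0.00418). For both genes the IP libraries lay under both inputs, and the depletion was larger in mouse F (−0.57 for Vamp1 and −0.84 for Napb) than in mouse E (−0.11 and −0.21). The call of Vamp1 was lost with DESeq2 (−0.41, adjusted p = 0.107) and without a filter on low counts (−0.40, adjusted p = 0.0644), with adjusted p from 0.000125 to 0.541 over its alternatives.

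Both falls depended on the feature that was counted. The same RNA-Seq libraries were also counted over whole exons, UTRs included, and there 7 of the 8 genes were enriched and Napb did not pass the test, where 33.7% of all 13254 genes were enriched. Vamp1 turned to 0.28 (SE 0.096, adjusted p = 0.0388) and Napb to 0.074 (SE 0.11, adjusted p = 0.554). Cplx1 rose by 0.67 (SE 0.087, adjusted p = 0.000756) and Nsf by 0.74 (SE 0.084, adjusted p = 0.000439), while Stx1a at 1.45, Snap25 at 1.08, Vamp2 at 0.93 and Cplx2 at 0.96 stayed enriched. With the CDS counts taken out of the exon counts, an alternative chosen after seeing the data, Vamp1 had −0.079 (adjusted p = 0.541) and Napb −0.21 (adjusted p = 0.136), and the other 6 genes were enriched, where 29.1% of all 9947 genes were.

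The ratio of exon to CDS counts shows what moved. For Napb its log2 was 2.15 in either input, 3.15 in the IP from mouse E and 3.55 in that from mouse F. The inputs had 2.64 and 2.74 for Vamp1, and the IPs 3.64 and 4.17. All 8 genes had a higher ratio in the IP, by 0.44 (Snap25) to 1.00 (Napb and Vamp1) in mouse E, where the median gene had 0.28, and by 0.30 (Cplx2) to 1.43 (Vamp1) in mouse F, where it had 0.35. The shift of Cplx2 in mouse F was the only value of the 8 genes below the median gene. The RNA-Seq libraries of mice A to D had ratios nearer to the inputs than to the IPs, at 2.18 to 2.26 for Napb and 2.76 to 3.01 for Vamp1.

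**Figure D4:**
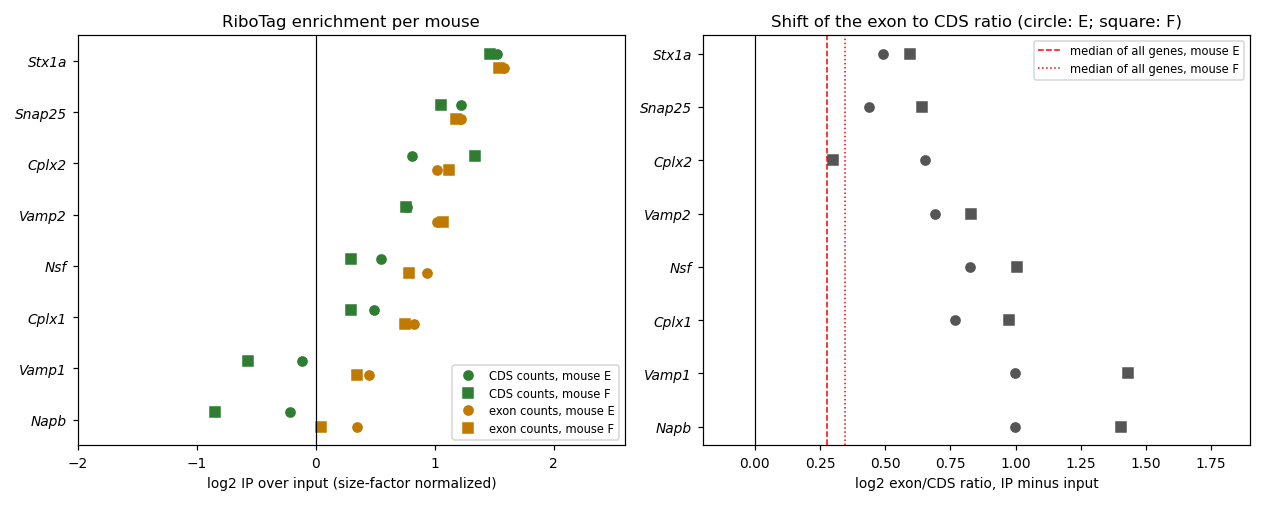
Left, log2 IP over input of the 8 genes in mouse E (circle) and mouse F (square), from CDS counts (green) and exon counts (orange), normalized by size factors. Right, the change of the log2 ratio of exon to CDS counts from input to IP, with the median of all genes as red lines; Vamp1 and Napb lie below 0 on the left in CDS counts and farthest to the right on the right.

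Marker genes moved with the IP. The 7 astrocyte markers summed to 2310 to 2370 CPM in the inputs and 196 to 229 in the IPs, the 6 oligodendrocyte markers to 2230 to 2350 and 180 to 185, and the 8 markers of inhibitory neurons to 1100 to 1130 and 194 to 239, with no listed gene at 0. The markers of oligodendrocyte precursors went from 110 to 115 CPM down to 4.51 to 5.59, of microglia from 330 to 331 down to 27.3 to 28.3, and of endothelium from 224 to 262 down to 7.3 to 13.9. The striatal markers overlapped, at 856 to 1040 CPM in the inputs and 903 to 1370 in the IPs. The 6 excitatory markers summed to 4790 to 5110 and 6730 to 7270 CPM, with 4 of the 6 enriched and 2 depleted, the lowest being Camk2a itself at −0.66. The part of these shifts in the values of the 8 genes was not tested.

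Set beside each other, TE in mice A and B and IP over input in mice E and F placed the genes differently. Stx1a had the lowest TE and the highest enrichment on CDS, and Napb the highest TE and the lowest enrichment. Paralogs were also apart. Napb lay under Napa in the IP by 1.75 in mouse E and 2.45 in mouse F on CDS and by 1.06 and 1.39 on exons, where Napa itself rose by 1.44 (SE 0.10, adjusted p = 5.43e-06) on CDS. Vamp1 lay under Vamp2 by 0.88 and 1.33 on CDS and by 0.57 and 0.72 on exons. Other genes did not follow this order. Cplx2 lay above Cplx1 in the IP, by 0.32 and 1.04 on CDS, and also in TE. Cplx1 had the lowest TE but for Stx1a, with an IP estimate of only 0.26, and Snap25 had a TE above Vamp1 and an enrichment next to that of Stx1a. These are 8 genes of the same 12 libraries, and no test was made of the relation.

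**Figure D5:**
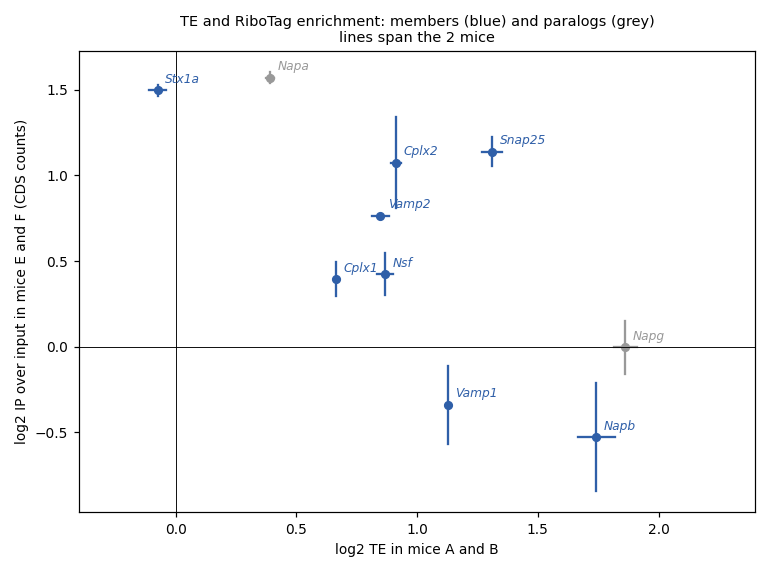
Log2 TE in mice A and B (horizontal) against log2 IP over input on CDS in mice E and F (vertical) for the 8 genes (blue) and for Napa and Napg (grey); lines span the mice. Stx1a and Napa lie at the upper left and Napb at the lower right, and Snap25 is high on both axes.

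Napg had an IP estimate of −0.14 (SE 0.13, adjusted p = 0.354), and on exons it was enriched by 0.59. Of all genes, 36.5% were enriched and 39.0% depleted in the IP on CDS. Over the other SNARE genes, 15 of 28 were enriched, 9 depleted and 4 did not pass, with a median of 0.40. They ran from Vamp3 (cellubrevin, of endosomes in many cell types) at −2.68 (SE 0.31, adjusted p = 5.97e-05) to Stx8 (an endosomal syntaxin) at 2.15 (SE 0.14, adjusted p = 3.23e-06). Over the regulators, 6 of 29 were enriched, 17 depleted and 6 did not pass, with a median of −0.68. The lowest was Stxbp5l at −3.18 (SE 0.17, adjusted p = 2.42e-06). The median of the 8 fusion genes, 0.46, was nearer to that of the other SNARE genes.

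Over all 12 libraries, the genes with the most similar profile of log2 CPM were found by the root mean square difference after centring each gene, among 12013 genes. Nsf was nearest to Atl1 (0.058) and Cap1 (0.061), Vamp2 to Cx3cl1 (0.075) and Leprotl1 (0.078), and Cplx1 to Nudcd3 (0.080) and Prnp (0.081). Snap25 was nearest to Sod2 (0.082) and Ywhae (0.11), Vamp1 to Elmod1 (0.094) and Flrt3 (0.10), and Napb to Pja2 (0.099) and Rab14 (0.11). Stx1a was nearest to St3gal5 (0.12) and Timm22 (0.13), and Cplx2 to Ctsb (0.13) and Ppp3ca (0.13). Among the 8 genes themselves, Nsf and Cplx1 were closest to each other at 0.11, which placed Nsf at rank 22 for Cplx1. Stx1a had no close profile among them. Its nearest was Vamp2 at 0.66, which stood at rank 4779, and the median gene lay at 0.76.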

How the data were processed

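Counts per gene were deposited by the authors without normalization, over CDS (12 libraries) and over exons (the 8 RNA-Seq libraries). According to the study's methods and the submitters' processing notes, footprint reads were trimmed, poly(A) stretches clipped, rRNA removed with Bowtie2, and reads aligned to mm10 with TopHat2 and counted with HTSeq. Footprints that a near-identical copy shares could have been lost or split.

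Changes were tested with edgeR 4.0.16 in R 4.3.3 (TMM, quasi-likelihood F-test, Benjamini-Hochberg adjustment over all genes tested, threshold 0.05) for genes whose counts averaged 37 or more per library, with 1 fit for mice A to D and 1 for mice E and F. The log2 changes of this fit are relative to TMM factors. Per-mouse TE and IP over input used DESeq2 1.42.0 size factors, so they differ from the edgeR estimates mainly by a shift common to all genes. SE is the estimate divided by the root of its F. For the TE change, the footprint change and the IP, the procedure was tested on simulated data with known changes and the same spread for every gene. Baseline TE and the RNA change were not simulated. Positions are from the RefSeq annotation of GRCm38.p6. Figures were drawn with matplotlib 3.10.9. No column of either table was left out for lack of a sample.

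Libraries with the same letter come from the same mouse, as the labels give it. Deviations from the group means correlated across genes at 0.24 (A and B), 0.23 (C and D) and 0.47 (E and F). The mice of each group differed by more than counting error (chi-square per degree of freedom 2.61 to 9.53). Alternatives were DESeq2, other scalings, filters and call rules, exon counts, the mouse as a block, other sets of libraries and leaving out each mouse. Genes named beside the 8 are the called extremes of the lists of other SNARE genes and regulators, Napa and Napg, and the most similar profiles. A few further genes named by it are left out. The members and lists were chosen with earlier results of these data known. No sequences are shown, since no result here rests on them.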

Additional observations from a re-analysis of the deposited data

Results flagged for a closer look

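The TE of Bsn, which encodes Bassoon, differed between the vehicle-treated and the AZD-8055-treated mice by the test of the difference itself, with a change of 0.48 on the log2 scale (edgeR, adjusted p = 0.0279, n = 2 mice per group). Its estimates were 0.23 in footprints (adjusted p = 0.14) and −0.25 in RNA (adjusted p = 0.32), neither of which passed. With DESeq2 the change was 0.49 (adjusted p = 0.00161). The call was lost when any 1 of mice A to D was left out (0.44 to 0.51), without a filter on low counts (0.43, adjusted p = 0.0877), when a fold over 2 was asked for as well, and with all 12 libraries in 1 fit (0.49, adjusted p = 0.948), the highest adjusted p of its alternatives.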

How the results depend on the processing

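Over the alternatives, the TE calls of the 8 genes kept their direction, and 4 of them lost a call when a fold over 2 was asked for, which left 3 genes and 3638 over all genes. In TE after AZD-8055 no alternative called any of the 8. The sign of Snap25 turned with DESeq2 (0.0096), RLE scaling (0.0098), library totals (0.034), 37 counts in every library (0.024) and all 12 libraries in 1 fit (0.0070), and that of Napb without a filter on low counts (−0.033). Leaving out each mouse gave −0.068 to 0.061 for Snap25, −0.096 to 0.10 for Napb and −0.025 to 0.13 for Vamp2. In footprints this gave −0.012 to 0.078 for Nsf, −0.0050 to 0.15 for Snap25 and −0.0024 to 0.12 for Vamp1, and in RNA −0.022 to 0.18 for Snap25, −0.0092 to 0.20 for Nsf, −0.069 to 0.23 for Napb and −0.042 to 0.12 for Stx1a. None of these was called.

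Over all genes, calls in TE after AZD-8055 numbered 102, and 36 with a fold over 2 and 56 to 77 without a mouse. Calls in footprints numbered 179, and 342 without a filter, 38 with a fold over 2, 111 with all 12 libraries, 110 with footprints and RNA fitted separately and 99 to 214 without a mouse, and DESeq2 called 1 of the 8. Calls in RNA numbered 11, and 17 with DESeq2, 87 without a filter, 17 with 37 counts in every library, 3 with a fold over 2, 0 with all 12 libraries, 18 fitted separately, 18 on exons and 0 to 41 without a mouse.

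In the IP, a fold over 2 left 2 genes and 5680 over all genes, exon counts less CDS counts (chosen after seeing the data) called 5927, and 6 to 8 of the 8 were called without a mouse, where 76.4% to 77.4% of all genes were. Library totals turned Nsf (−0.15) and Cplx1 (−0.18). Exon counts turned Vamp1 (0.28), Napb (0.074) and Napg (0.59), and exon counts less CDS counts turned Napg (0.33). Cplx1 was called in 8 of its 12 alternatives. The replicate block was 1 of these (0.26), and it changed no other call among the 24 values of the 8 genes that it gave. DESeq2 size factors moved the median log2 range of the levels over the 12 libraries from 1.30 to 1.52. The cause of these moves was not tested. With 2 mice per group the counts of Vamp1, 173 to 601 in CDS, were the lowest of the 8 genes. Where a mouse was left out, the lone library of its group was assumed to vary like those of the other groups. For the IP, those fits also took in the libraries of mice A to D, unlike the main fit. Part of their difference from the main fit can come from that.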
